A study of Arabidopsis thaliana with 18 samples.

Results

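The transcript levels of Italian (IT) Arabidopsis thaliana plants after 2 weeks at 4 °C were compared with those of IT plants kept in the warm, gene by gene. A gene entered the comparison when its level reached 1 FPKM (fragments mapped to a transcript, scaled by its length and by the library's mapped fragments) in either group. Of 33557 genes in the deposited table, 18810 met that limit and 18706 had a ratio, of which 18094 are annotated as protein coding. IT is a natural accession, and the series sets it beside a Swedish accession (SW) to ask how the cold-response pathway differs between local populations.

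The IT cold plants and the IT warm plants both grew for 18 days on soil, at 22 °C and with 12 h of light a day. The cold plants then spent 2 weeks at 4 °C with the same day length. Light in the cold was about 35 µmol m-2 s-1, against 100 to 120 in the same unit at 22 °C. The cold plants were thus 2 weeks older and in dimmer light at harvest, and temperature, age and light cannot be told apart. The whole aerial part was taken 4 h after lights on (ZT4) in every group. Each group had 3 libraries, and the table gives 1 combined value for the 3. IT plants after 1 week of cold, and SW plants in the warm and in the cold, are given below only beside the IT genes. No mutant, transgene or chemical treatment is named for any group.

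In the cold, plants that have grown in the warm pass through cold acclimation. CBF transcription factors bind a short promoter element, the CRT/DRE, and turn on genes for hydrophilic protective proteins (COR, dehydrin and LEA proteins). Growth slows, sugars and proline build up, light harvesting exceeds what carbon fixation can use, and protein synthesis and folding are adjusted to the low temperature.

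With 1 value per group there was no replicate spread, so no difference below has a test or an error, and each is given as the pair of values. A gene is called higher or lower where log2((cold FPKM + 1)/(warm FPKM + 1)) reached 1 or -1, which is 2-fold. The FPKM values summed to 910807 in the cold group and 823963 in the warm group, and the read depth behind them is unknown. A further 104 genes listed at exactly 0 in one group were given no ratio, since several of them are among the most abundant leaf genes. LHCA4, a light-harvesting protein of photosystem I, was listed at 3294 FPKM in the cold and at 0 in the warm, and RCA (Rubisco activase) at 2650 FPKM and at 0. The leaf markers CA1, GAPB, PSAD-1 and PSBO1 stood between 762 and 1984 FPKM in the cold and between 880 and 3680 FPKM in the warm, and RBCS1A was listed at 0 in both. None of the 7 seed markers reached 1 FPKM in either group, and of 4 root markers only PYK10 did, with 1.76 FPKM in the cold and 35.1 FPKM in the warm. Of the 7 floral markers 5 reached 1 FPKM, with SEP3 at 2.60 FPKM in the cold and 0.124 FPKM in the warm. In whole aerial parts, fewer cells of a type and less RNA per cell cannot be told apart.

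After 2 weeks of cold 1362 genes (7.28%) were at least 2-fold higher than in the warm and 1247 (6.67%) at least 2-fold lower, 13.9% in all. The median log2 ratio of all genes was 0.05. At 8-fold, 72 genes were higher and 27 lower. The 1 FPKM added before the ratio draws the ratios of low genes towards 0 by construction, so the counts below are not comparable across levels. Of 1677 genes with 100 FPKM or more in the higher group, 346 were higher and 173 lower, and of 4153 genes between 1 and 5 FPKM 177 and 194. The balance of the 2 directions depended on the scaling. With both groups set to the same median level of 12 reference genes, 488 genes were higher and 3493 lower and the median of all genes shifted by -0.51. With upper-quartile scaling the counts were 1109 and 1478, and with quantile normalization 1135 and 1381. The reference genes had a median log2 ratio of 0.26 as deposited, and -0.31 under reference-gene scaling. Below, a group of genes is read against the 7.28% and the 6.67%, and where the sign of a group's median turns under reference-gene scaling this is given with the group.

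**Figure D1:**
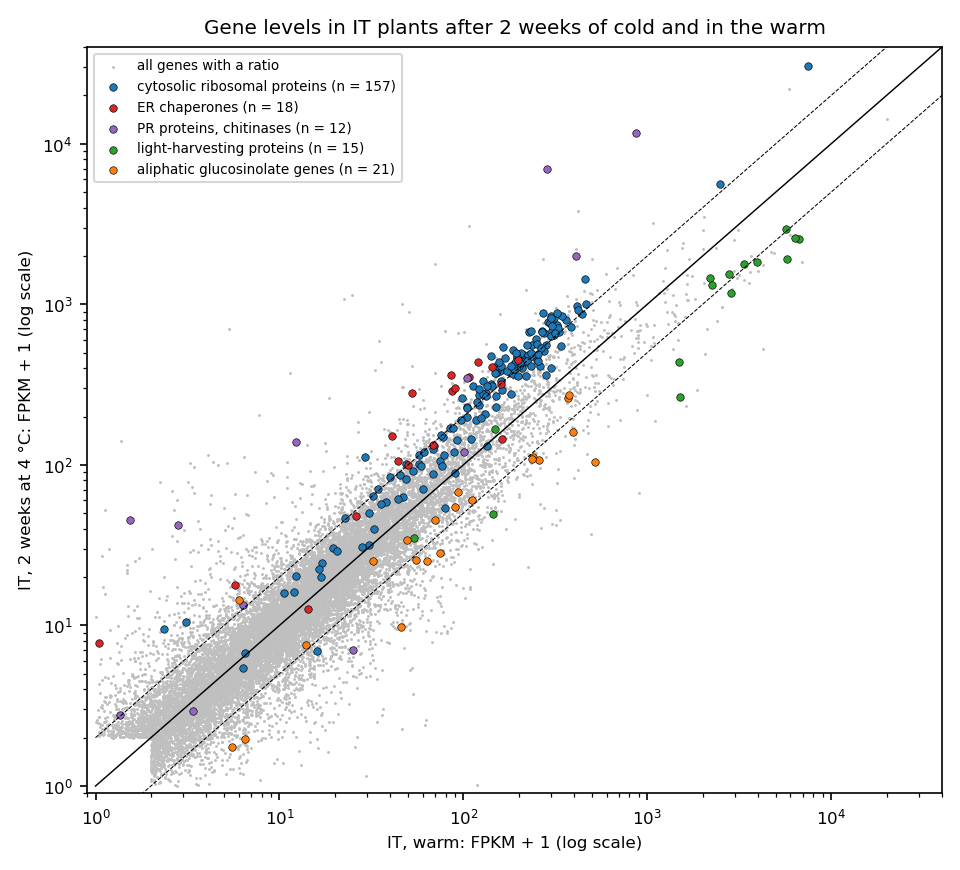
Levels (FPKM + 1, log scales) of each gene in IT plants after 2 weeks at 4 °C (vertical axis) and in the warm (horizontal axis), with 5 gene groups in colour, equality as a solid line and 2-fold as dashed lines. Most of the 157 cytosolic ribosomal protein genes lie near or above the upper dashed line, while the light-harvesting genes lie at the right and mostly near or below the lower one.

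Among genes of at least 10 FPKM in the higher group, the 15 highest ratios took in 3 protective proteins, a group of clock-related regulators and several defence genes. KIN1, a small protective protein, had the highest ratio, at 698 FPKM in the cold and 4.29 FPKM in the warm. COR27 and COR28, a pair of small proteins that act on the clock and on freezing tolerance, stood at 140 and 51.0 FPKM in the cold, against 0.382 and 0.132 FPKM in the warm. RVE2, a MYB-like factor of the clock family, stood at 76.7 FPKM in the cold and 1.25 FPKM in the warm. COR27, COR28 and RVE2 were thus near or below 1 FPKM in the warm at this hour of the day. GRP3S, a glycine-rich protein, reached 1147 FPKM in the cold against 23.9 FPKM in the warm. ABCG40, a transporter that takes up abscisic acid, reached 67.3 FPKM in the cold against 1.60 FPKM in the warm. AT4G18422, annotated as an uncharacterized protein, stood at 102 FPKM in the cold and 2.26 FPKM in the warm.

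The lowest ratio belonged to NUDT24, a nudix hydrolase homolog, at 0.0134 FPKM in the cold and 118 FPKM in the warm. AT1G73600, annotated as an S-adenosylmethionine-dependent methyltransferase, was the most abundant of the 15 lowest in the warm, with 66.1 FPKM in the cold and 904 FPKM in the warm. AT4G23670, annotated in the polyketide cyclase and lipid transport family, had 35.8 FPKM in the cold and 491 FPKM in the warm. Apart from these, the 15 genes with the lowest ratios stood between 0.157 and 4.29 FPKM in the cold, and at no more than 61.3 FPKM in the warm. They included cPT4 (a prenyltransferase), 2 genes of the TRAF-like family (AT4G01390 and AT2G32870), NUDT8 and PYK10. PYK10 is the main beta-glucosidase of ER bodies in roots and seedlings. The genes most abundant in the cold were not all among the higher ones. MT1A, a metallothionein, stood at 14308 FPKM in the cold and 20033 FPKM in the warm, and GER1, a germin-like protein, at 3506 and 2035 FPKM. AT2G01021, annotated as an uncharacterized protein, was higher, at 21896 and 5908 FPKM. It stood at 6281 FPKM in IT at 1 week and 6114 FPKM in SW at 2 weeks. It spans only 6571 to 6672 on chromosome 2, and FPKM of so short a gene is uncertain.

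**Figure D2:**
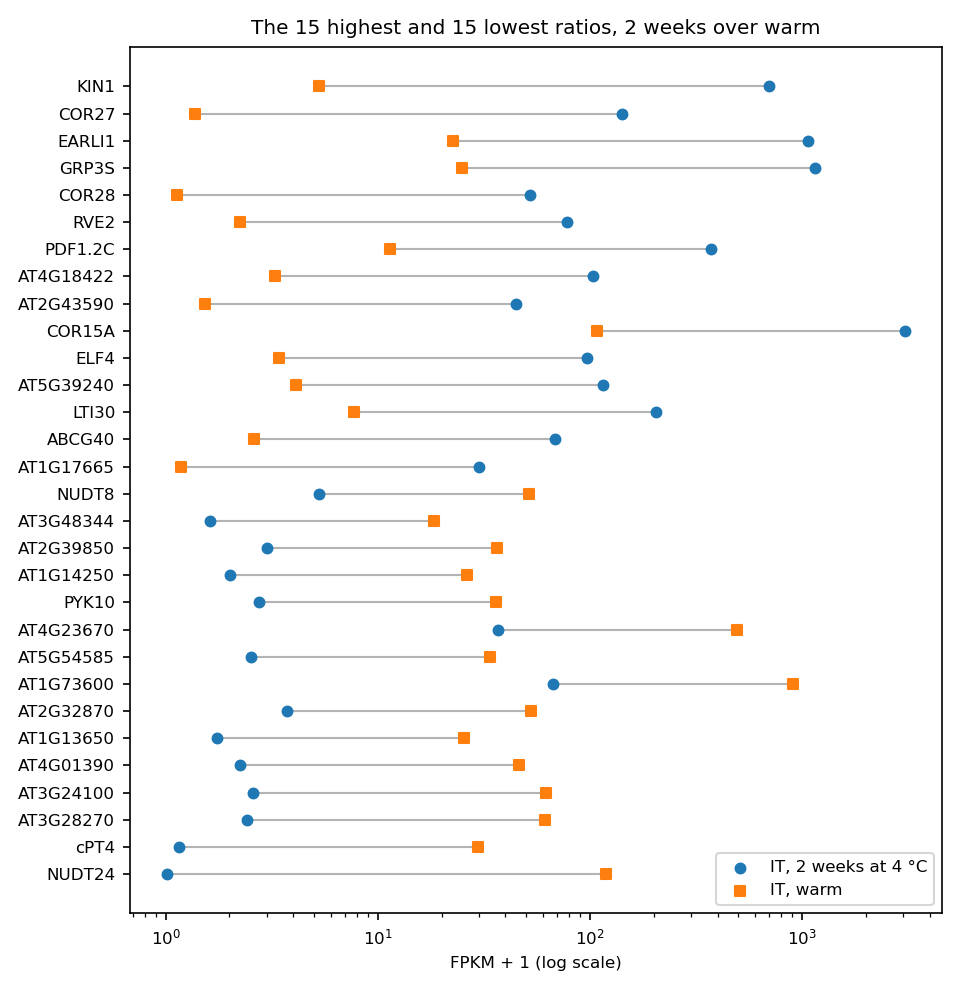
FPKM + 1 (log scale) of the 15 genes with the highest and the 15 with the lowest ratio among genes of at least 10 FPKM in the higher group, after 2 weeks at 4 °C (circles) and in the warm (squares). Most of the 30 genes are at a few FPKM or fewer in one of the groups, and COR15A, at 3062 FPKM in the cold and 107 FPKM in the warm, is among the few abundant in both.

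Members of the protective protein families were mostly higher. Of 14 COR, dehydrin and LEA genes with a ratio, 9 were higher and 1 was lower, with a median log2 ratio of 1.16. COR15B, the neighbour and close relative of COR15A, stood at 1775 FPKM in the cold and 69.0 FPKM in the warm, and the dehydrin LTI30 at 204 and 6.75 FPKM. Another dehydrin, ERD14, stood at 320 FPKM in the cold and 540 FPKM in the warm, within 2-fold. RAB18, a dehydrin best known from drought and abscisic acid, was lower, at 5.0 FPKM in the cold and 11.9 FPKM in the warm. HIRD11, the most abundant dehydrin within 2-fold, had 2251 FPKM in the cold and 1535 FPKM in the warm. COR15A and COR15B, and KIN1 and KIN2, are close in sequence and may share reads.

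Most evening genes of the circadian clock were higher at ZT4 in the cold. Of 14 evening and daytime clock genes 10 were higher and none lower (median log2 ratio 1.48), and of 14 morning clock and output genes 7 were higher and 1 lower (median 0.67). PRR5, a pseudo-response regulator that represses the morning genes, stood at 135 FPKM in the cold and 16.7 FPKM in the warm. TOC1, which closes the clock loop in the evening, stood at 54.1 FPKM in the cold and 11.1 FPKM in the warm. The morning factor CCA1 was also higher, at 164 FPKM in the cold and 42.6 FPKM in the warm, so that genes that peak at opposite times of day were high together in this 1 sample of the day. RVE7 was lower, at 7.25 FPKM in the cold and 16.1 FPKM in the warm. The day-length gene COL1, a relative of CONSTANS, stood at 80.1 FPKM in the cold and 27.4 FPKM in the warm. No other hour was measured, so the level and the phase of a rhythm cannot be told apart.

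Short elements named for the cold and clock genes occur in some of the promoter windows. The windows of 4 genes higher in the cold are printed here because they hold such elements more than once. Each window is the 250 bases before the annotated 5′ end of the gene in TAIR10.1, read 5′ to 3′ on the strand of the gene. Capitals mark CCGAC, the core of the CRT/DRE, and AAAATATCT, the evening element, on either strand. GRP7 (window chr2:9266558-9266807) and COR15A (chr2:17712331-17712580) lie on the minus strand. LUX (chr3:17182792-17183041) and RD29A (chr5:21240467-21240716) lie on the plus strand.
GRP7: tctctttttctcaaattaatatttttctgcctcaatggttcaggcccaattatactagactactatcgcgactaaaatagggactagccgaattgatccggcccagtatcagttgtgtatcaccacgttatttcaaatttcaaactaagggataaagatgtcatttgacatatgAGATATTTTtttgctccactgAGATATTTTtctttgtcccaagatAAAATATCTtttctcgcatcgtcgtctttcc
LUX: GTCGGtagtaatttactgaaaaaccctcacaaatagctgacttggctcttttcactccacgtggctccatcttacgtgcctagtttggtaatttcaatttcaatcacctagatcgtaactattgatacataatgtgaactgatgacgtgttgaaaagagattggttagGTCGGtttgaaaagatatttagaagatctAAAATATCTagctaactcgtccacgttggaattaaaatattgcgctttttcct
COR15A: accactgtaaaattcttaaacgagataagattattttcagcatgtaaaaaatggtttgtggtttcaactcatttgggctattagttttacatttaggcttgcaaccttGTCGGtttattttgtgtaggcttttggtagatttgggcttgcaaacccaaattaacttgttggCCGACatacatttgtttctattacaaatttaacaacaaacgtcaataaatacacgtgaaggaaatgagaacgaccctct
RD29A: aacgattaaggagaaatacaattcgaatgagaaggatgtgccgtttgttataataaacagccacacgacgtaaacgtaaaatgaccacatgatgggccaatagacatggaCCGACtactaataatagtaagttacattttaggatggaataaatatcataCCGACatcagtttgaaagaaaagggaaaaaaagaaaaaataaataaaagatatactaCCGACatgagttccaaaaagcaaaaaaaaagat
GRP7, an RNA-binding protein of the clock output, has 3 evening elements in its window. LUX, a repressor of the evening complex, has 1 evening element and 2 CRT/DRE cores, COR15A has 2 cores and RD29A 3. The windows of KIN1, COR15B, ELF4 and CCA1 hold neither element. Of the 15 genes with the highest ratios, 3 hold the core, 3 the evening element and 6 either. Of the 15 with the lowest ratios, 2 hold the core and 0 the evening element. RD29A, a hydrophilic stress protein, stood at 185 FPKM in the cold and 25.7 FPKM in the warm, and GRP7 at 1907 and 268 FPKM.

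Over all protein-coding genes with a window, the evening element was found in 5.63% of 1314 genes higher in the cold, 3.37% of 1188 lower genes and 2.29% of 15591 genes within 2-fold. It was found in 2.36% of the 27443 protein-coding genes of the annotation. CCGAC was found in 13.4% of the higher genes, 11.4% of the lower genes and 13.3% of those within 2-fold, and in 12.0% of the annotation. ACGTG, the core of the element bound by abscisic acid response factors, was found in 29.4% of the higher genes, 27.4% of the lower genes and 22.6% of those within 2-fold, and in 22.9% of the annotation. Of the 70 genes at least 8-fold higher, 11 held the evening element, 11 held CCGAC and 30 held ACGTG. Both strands were searched, and CCGAC and ACGTG can overlap by shared letters. A match in such a window is not evidence of binding, and the window misses elements farther upstream or past the annotated start.

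Genes for protein folding in the endoplasmic reticulum (ER) were mostly higher. Of 18 ER chaperone and regulator genes 13 were higher and none lower, with a median log2 ratio of 1.58. Their median level was 214 FPKM in the cold, against 76.3 FPKM in the warm. Apart from the transcription factors BZIP60 and BZIP28, which are counted among the 18, these proteins fold, inspect and cross-link newly made secreted proteins. BIP1 and BIP2, the ER Hsp70 chaperones, stood at 286 and 360 FPKM in the cold, against 85.9 and 84.9 FPKM in the warm. BIP3, the copy made chiefly under ER stress, stood at 6.81 FPKM in the cold and 0.0507 FPKM in the warm. All 3 BiP genes were thus more than 2-fold higher. The disulfide isomerase PDIL1-2 stood at 278 FPKM in the cold and 51.8 FPKM in the warm, and PDIL1-1 at 352 and 107 FPKM. The lectin chaperones CNX1 and CRT1b stood at 408 and 439 FPKM in the cold, against 141 and 119 FPKM in the warm. BZIP60, a transcription factor of the unfolded protein response, stood at 150 FPKM in the cold and 39.9 FPKM in the warm. Under the 3 scalings 9 to 12 of the 18 genes remained above 2-fold and none was below it.

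Of 11 heat shock chaperone, co-chaperone and regulator genes none was higher, 5 were lower and 6 were within 2-fold (median log2 ratio -0.98). HSP90.1, a heat-induced chaperone, stood at 0.394 FPKM in the cold and 8.37 FPKM in the warm, and HSP70 at 1.17 and 10.8 FPKM. The heat factor HSFA2 stood at 0.313 FPKM in the cold and 3.24 FPKM in the warm. HSC70-1, the constitutive cytosolic Hsp70, was within 2-fold, at 693 FPKM in the cold and 813 FPKM in the warm.

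Genes of the cytosolic ribosome were higher as a wide group whose ratios lay close to 2-fold. Of 157 cytosolic ribosomal protein genes with a ratio 89 were higher and 1 was lower, and 152 had a ratio above 0. The median log2 ratio was 1.04, and the middle 50% of the genes lay between 0.72 and 1.24. Together they took 10.1% of the FPKM sum in the cold and 4.32% in the warm. Much of that came from AT3G08520, an L41 gene that encodes a very short protein, at 30653 FPKM in the cold and 7480 FPKM in the warm. Without it the shares were 6.76% in the cold and 3.42% in the warm. FPKM of very short transcripts is uncertain. The group median sits near the call limit, and the count of higher genes was 63 under upper-quartile scaling, 25 under quantile normalization and 8 under reference-gene scaling, while the median was above 0 under all 3, at 0.47 to 0.95. The single lower gene was AT5G39850, at 5.94 FPKM in the cold and 14.9 FPKM in the warm.

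Ribosomal proteins of the organelles were nearer to all genes: of 19 nuclear genes for plastid or mitochondrial ribosomal proteins none was higher or lower, with a median log2 ratio of 0.34 that was -0.18 under reference-gene scaling. Of 14 ribosome assembly genes 6 were higher and none lower (median 0.73). Under upper-quartile scaling and quantile normalization 3 were higher, and under reference-gene scaling 1 was higher and 1 lower (median 0.17). NOP5-1 and NOP5-2, core proteins of the small nucleolar particles that guide rRNA modification, stood at 44.8 and 63.2 FPKM in the cold, against 17.9 and 26.4 FPKM in the warm. REIL1, a late factor in the assembly of the large subunit, stood at 44.7 FPKM in the cold and 21.5 FPKM in the warm.

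**Figure D3:**
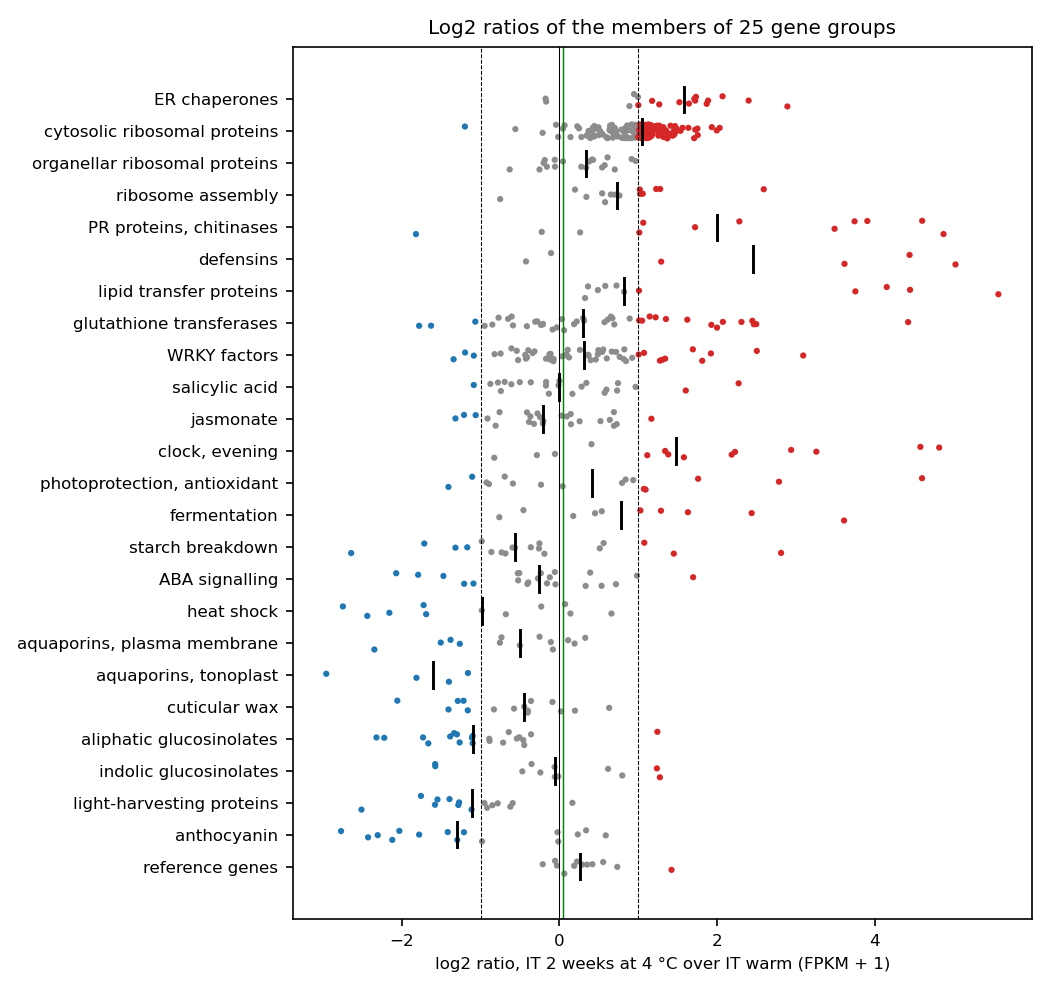
Log2 ratios of FPKM + 1, 2 weeks at 4 °C over warm in IT, for each member (point) of the gene groups named at the left, with the group median as a black bar, 2-fold as dashed lines and the median of all genes as a green line. Red points are at least 2-fold higher and blue points at least 2-fold lower. The medians of ER chaperones, defensins, and PR proteins with chitinases lie to the right, and those of tonoplast aquaporins, anthocyanin and light-harvesting genes to the left.

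Genes for extracellular defence proteins were mostly higher. Of 12 genes for pathogenesis-related (PR) proteins, glucanases and chitinases 9 were higher and 1 was lower (median log2 ratio 2.00). PR1 and PR5 alone took 2.04% of the FPKM sum in the cold and 0.140% in the warm. BG3, a beta-1,3-glucanase beside PR2 on chromosome 3 (21181642 to 21183144), stood at 138 FPKM in the cold and 11.3 FPKM in the warm. The chitinases AT2G43590 and AT2G43620, in a cluster on chromosome 2, stood at 44.1 and 41.4 FPKM in the cold, against 0.536 and 1.83 FPKM in the warm. CHI, another chitinase of that cluster, stood at 345 FPKM in the cold and 104 FPKM in the warm. The lower gene was PRB1, a basic relative of PR1, at 6.08 FPKM in the cold and 24.0 FPKM in the warm.

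Plant defensins, small cysteine-rich antifungal proteins, were higher in 4 of 6 genes. PDF1.2A and PDF1.2C lie side by side on chromosome 5 (17906968 to 17907638 and 17908850 to 17909507) and are nearly identical, so reads may be shared between them. They stood at 439 and 371 FPKM in the cold, against 34.8 and 10.4 FPKM in the warm. PDF1.3 stood at 71.6 FPKM in the cold and 2.33 FPKM in the warm. LCR69, another gene of the wider defensin-like family, stood at 1003 FPKM in the cold and 45.5 FPKM in the warm. PDF1.2 genes are the usual markers of jasmonate and ethylene signalling. Of 25 jasmonate genes 1 was higher and 3 were lower, beside 7.28% and 6.67% of all genes. No list of ethylene genes was made, and a change in either signal was not tested. The jasmonate synthesis gene AOS stood at 118 FPKM in the cold and 247 FPKM in the warm, and VSP2, a wound-response protein, at 3.25 and 9.60 FPKM.

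The salicylic acid pathway, which controls PR1, PR2 and PR5, was mostly within 2-fold. Of its 23 genes 2 were higher and 1 was lower, with a median log2 ratio of -0.01 (2 and 7 under reference-gene scaling). ICS1, the enzyme that makes most salicylic acid, stood at 31.5 FPKM in the cold and 53.4 FPKM in the warm. The higher genes were UGT76B1, which puts sugar on salicylic acid and on an isoleucine-derived acid, at 7.82 FPKM in the cold and 0.822 FPKM in the warm, and FMO1, which makes the immune signal N-hydroxypipecolic acid, at 12.2 and 3.33 FPKM. The lower gene was WRKY70, a transcription factor of this pathway, at 110 FPKM in the cold and 235 FPKM in the warm. Among 52 WRKY factors 10 were higher and 3 lower; the median log2 ratio, 0.31, was -0.17 under reference-gene scaling. WRKY30 and WRKY40 stood at 19.1 and 26.1 FPKM in the cold, against 1.35 and 3.77 FPKM in the warm.

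A cluster of 4 genes for hybrid proline-rich lipid transfer proteins on chromosome 4 was higher as a whole. From 7401087 to 7414955 it holds AZI1, EARLI1, AZI3 and AT4G12500. EARLI1 stood at 1072 FPKM in the cold and 21.6 FPKM in the warm, and AZI1, which primes systemic defence, at 900 and 49.6 FPKM. AZI3 and AT4G12500 stood at 55.7 and 59.7 FPKM in the cold, against 3.19 and 1.78 FPKM in the warm. The other lipid transfer proteins stood closer together. LTP1, the abundant epidermal one, had 995 FPKM in the cold and 709 FPKM in the warm. All 11 lipid transfer genes had a ratio above 0, and 5 were at least 2-fold higher. Of 43 glutathione transferases, which conjugate reactive compounds, 14 were higher and 3 lower; the median, 0.30, was -0.27 under reference-gene scaling. GSTU24 stood at 99.2 FPKM in the cold and 3.66 FPKM in the warm, and GSTF6 at 1230 and 217 FPKM.

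Starch breakdown split by enzyme. Of 19 genes 3 were higher and 4 lower, with a median log2 ratio of -0.56. The counts were 1 and 10 under reference-gene scaling, and 2 and 5 under upper-quartile scaling and under quantile normalization. BAM3, the main beta-amylase of leaves, which releases maltose, stood at 657 FPKM in the cold and 92.6 FPKM in the warm. PWD, a dikinase that phosphorylates the starch granule, stood at 69.6 FPKM in the cold and 24.8 FPKM in the warm, whereas the dikinase before it, GWD1, stood at 62.7 and 105 FPKM. The maltose-processing enzyme DPE2 was lower, at 41.8 FPKM in the cold and 106 FPKM in the warm. BAM6 was lower as well, at 1.47 FPKM in the cold and 14.4 FPKM in the warm. BAM3, which makes maltose, and DPE2, which uses it, thus lay past 2-fold in opposite directions.

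Of 22 sugar transporters 2 were higher, 3 were lower and 17 were within 2-fold; the median log2 ratio, 0.24, was -0.31 under reference-gene scaling. SWEET4, a sugar exporter, had the highest ratio, at 13.3 FPKM in the cold and 2.42 FPKM in the warm. SWEET17, a fructose channel of the vacuole, stood at 9.74 FPKM in the cold and 63.6 FPKM in the warm, and SWEET16, its relative in the same membrane, at 0.803 and 5.46 FPKM. GPT2, which brings glucose 6-phosphate into plastids, was higher, at 45.7 FPKM in the cold and 17.5 FPKM in the warm. Of 10 fermentation and low-oxygen genes 5 were higher and none lower. ADH1, alcohol dehydrogenase, stood at 88.9 FPKM in the cold and 6.35 FPKM in the warm, and PDC1, the pyruvate decarboxylase before it, at 6.48 and 0.377 FPKM. Of 10 genes of proline metabolism 2 were higher and 1 was lower, and the median, 0.13, was -0.31 under reference-gene scaling. The higher genes P5CS2 and P5CR, both of synthesis, stood at 223 and 111 FPKM in the cold, against 56.8 and 39.5 FPKM in the warm. The lower gene, PROT3, had a log2 ratio of -1.18. P5CS1, the form usually induced by stress, was within 2-fold at 155 FPKM in the cold and 108 FPKM in the warm.

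Of 15 light-harvesting genes with a ratio none was higher and 8 were lower (median log2 ratio -1.11). The list has 20 genes. LHCA4 and LHB1B2 were listed at 0 in one group and had no ratio, and with 0 used as 0, 2 genes were higher and 8 lower. The other 3, CAB1, CAB2 and CAB3, did not reach 1 FPKM in either group. LHCB2.3 stood at 264 FPKM in the cold and 1512 FPKM in the warm, and LHCA3 at 1911 and 5711 FPKM. Of 17 genes of Rubisco and the Calvin cycle none was higher and 2 were lower (median -0.07). The lower ones were RBCS3B and RBCS2B, small subunits of Rubisco, at 523 and 293 FPKM in the cold, against 4233 and 1855 FPKM in the warm. GAPA, a dehydrogenase of that cycle and the most abundant member within 2-fold, stood at 2184 FPKM in the cold and 1281 FPKM in the warm. The members of the LHCB and RBCS families are close in sequence and may share reads.

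Enzymes that remove reactive oxygen lay on both sides, also within a type. The catalases CAT2 and CAT3, which remove hydrogen peroxide in peroxisomes, stood at 342 and 956 FPKM in the cold, against 738 and 2538 FPKM in the warm. The chloroplast superoxide dismutases FSD2 and FSD3 stood at 71.1 and 78.4 FPKM in the cold, against 20.3 and 36.2 FPKM in the warm, while FSD1, of the same family, was within 2-fold at 453 and 734 FPKM. Of the peroxidases that use ascorbate, SAPX was higher, at 188 FPKM in the cold and 88.6 FPKM in the warm, and TAPX was within 2-fold, at 40.4 and 76.0 FPKM. ELIP1 and ELIP2, light-stress proteins of the thylakoid, stood at 211 and 76.8 FPKM in the cold, against 29.8 and 2.2 FPKM in the warm. So 5 of the 16 photoprotection and antioxidant genes were higher and 2 were lower; the median, 0.42, was -0.16 under reference-gene scaling. PSBS, which starts the fast dissipation of light energy, was within 2-fold, at 1493 FPKM in the cold and 1755 FPKM in the warm.

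Of 15 anthocyanin genes none was higher and 9 were lower (median -1.30). The regulator PAP1 stood at 2.40 FPKM in the cold and 13.8 FPKM in the warm, and the repressor MYBL2 at 85.1 and 229 FPKM, so that activator and repressor were lower together. Of 12 flavonol and earlier phenylpropanoid genes 1 was higher and 1 was lower. The higher one was MYB111, an activator of flavonol synthesis, at 9.53 FPKM in the cold and 1.73 FPKM in the warm.

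Glucosinolates are sulfur-rich defence compounds of this plant family, made from several amino acids. Of 21 genes of the aliphatic, methionine-derived branch 1 was higher and 11 were lower (median log2 ratio -1.10), and 20 had a ratio below 0. BCAT4, the entry step of chain elongation, stood at 158 FPKM in the cold and 391 FPKM in the warm, and CYP79F1, the entry step of the core pathway, at 108 and 234 FPKM. MYB29, an activator of this branch, stood at 24.0 FPKM in the cold and 62.2 FPKM in the warm. The indolic, tryptophan-derived branch had 2 higher and 2 lower of 12 genes (median -0.06). Its entry enzyme CYP79B2 was higher, at 70.8 FPKM in the cold and 28.7 FPKM in the warm. Of the proteins that break glucosinolates down, the myrosinase TGG2 and the specifier protein ESP stood at 243 and 959 FPKM in the cold, against 612 and 2557 FPKM in the warm. ESM1, which favours isothiocyanates over the nitriles that ESP favours, was higher, at 65.5 FPKM in the cold and 20.4 FPKM in the warm.

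Of the water channels, all 4 aquaporins of the vacuolar membrane that reached 1 FPKM were lower (median log2 ratio -1.61), and of 13 of the plasma membrane none was higher and 4 were lower (median -0.50). TIP1;2 stood at 174 FPKM in the cold and 613 FPKM in the warm, and TIP2;2 at 8.14 and 70.1 FPKM. PIP2B stood at 10.6 FPKM in the cold and 58.3 FPKM in the warm. PIP3 was within 2-fold, at 195 FPKM in the cold and 180 FPKM in the warm.

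Of 15 cuticular wax genes none was higher, 5 were lower and 10 were within 2-fold. KCS1, a fatty acid elongase, stood at 9.49 FPKM in the cold and 42.6 FPKM in the warm. CER1, needed for wax alkanes, stood at 6.17 FPKM in the cold and 18.0 FPKM in the warm. Of 18 XTH genes, which remodel xyloglucan in the wall, 3 were higher and 2 lower; their median, 0.33, was -0.17 under reference-gene scaling. XTH33 stood at 13.4 FPKM in the cold and 1.42 FPKM in the warm, and XTH31 at 3.68 and 20.2 FPKM. Of 17 cell cycle genes 1 was higher and none lower (none and 2 under reference-gene scaling). The higher gene, the mitotic cyclin CYCB1;1, stood at 6.46 FPKM in the cold and 2.29 FPKM in the warm.

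Of 22 genes of abscisic acid signalling 1 was higher and 5 were lower (median log2 ratio -0.25). The receptors PYR1, PYL4, PYL7 and PYL9 stood at 11.6, 14.1, 11.7 and 9.05 FPKM in the cold, against 42.8, 33.8, 52.2 and 26.9 FPKM in the warm. PYL6, a receptor of the same family, was higher, at 5.67 FPKM in the cold and 1.06 FPKM in the warm. Of 17 auxin genes 1 was higher and 4 were lower, with IAA29, an early auxin-response repressor, at 0.282 FPKM in the cold and 4.39 FPKM in the warm. Of 10 light signalling genes none was higher and 2 were lower. PIF4, a growth-promoting factor that responds to warmth, stood at 13.8 FPKM in the cold and 60.2 FPKM in the warm.

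Nutrient genes gave isolated differences. Of 17 nitrogen genes 3 were higher and 1 was lower (1 and 5 under reference-gene scaling). The lower gene was GLN1;4, a cytosolic glutamine synthetase, at 9.23 FPKM in the cold and 49.3 FPKM in the warm. Of 11 iron genes 1 was higher and 1 was lower, and the median, 0.25, was -0.28 under reference-gene scaling. FER3, an iron-storing ferritin, stood at 193 FPKM in the cold and 43.8 FPKM in the warm, while FER1 stood at 140 and 276 FPKM, within 2-fold. PORA, a protochlorophyllide reductase of dark-grown seedlings, was the 1 higher gene of 13 of chlorophyll synthesis, at 27.5 FPKM in the cold and 2.26 FPKM in the warm.

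Values after 1 week in IT are set beside these as levels only, because both cold groups are compared with the same IT warm plants. Some genes stood highest at 2 weeks. PDF1.2A had 34.8 FPKM in the warm, 39.7 FPKM at 1 week and 439 FPKM at 2 weeks, and PR1 had 867, 3336 and 11644 FPKM. BIP3 had 0.0507 FPKM in the warm, 0.966 FPKM at 1 week and 6.81 FPKM at 2 weeks. Other genes stood highest at 1 week. NOP5-1 had 17.9 FPKM in the warm, 122 FPKM at 1 week and 44.8 FPKM at 2 weeks, and PR2 had 410, 3079 and 2001 FPKM. The median of the 157 cytosolic ribosomal protein genes was 156 FPKM in the warm, 529 FPKM at 1 week and 361 FPKM at 2 weeks. MAM1, a chain-elongating enzyme of the aliphatic glucosinolates, had 369 FPKM in the warm, 707 FPKM at 1 week and 259 FPKM at 2 weeks, so that it stood on opposite sides of its warm level at the 2 times.

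**Figure D4:**
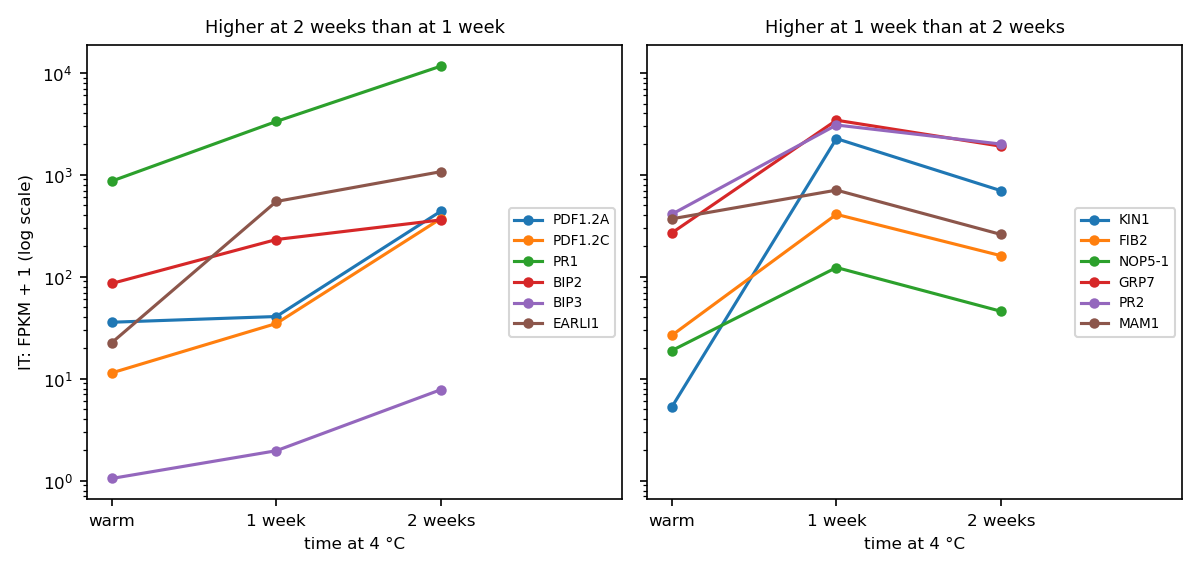
FPKM + 1 (log scale) in IT plants in the warm and after 1 and 2 weeks at 4 °C, 1 combined value per point. Left, genes that stood higher at 2 weeks than at 1 week, such as PDF1.2A at 439 and 39.7 FPKM; right, genes that stood higher at 1 week, such as NOP5-1 at 122 and 44.8 FPKM.

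SW plants after 2 weeks in the cold were compared with SW plants in the warm in the same way, with no sample shared with IT. There 1265 of 18425 genes (6.87%) were higher and 1444 (7.84%) lower. The genes higher in both ecotypes numbered 679, which is 49.9% of those higher in IT and 53.7% of those higher in SW. Those lower in both numbered 700, or 56.1% of those lower in IT and 48.5% of those lower in SW. Genes higher in IT and at least 2-fold lower in SW numbered 24, and genes lower in IT and higher in SW 7.

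The counts of several groups differed between the ecotypes. That difference was not tested, since each ecotype has 1 value per condition. Of the ER chaperone and regulator genes 13 of 18 were higher in IT, against 1 of 17 higher and 1 lower in SW. In SW PDIL1-2 stood at 36.3 FPKM in the cold and 42.4 FPKM in the warm. Of the PR, glucanase and chitinase genes 9 of 12 were higher and 1 lower in IT, against 2 of 13 higher and 5 lower in SW. PR5 stood at 6916 FPKM in the cold and 283 FPKM in the warm in IT, and at 322 and 196 FPKM in SW. Of the salicylic acid genes 1 of 23 was lower in IT and 19 of 23 in SW. Of the WRKY factors 10 of 52 were higher and 3 lower in IT, against 1 of 47 higher and 11 lower in SW. These counts are of 2 weeks of cold and leave out SW plants at 1 week. At 1 week in SW, PR5 stood at 1240 FPKM and WRKY75 at 17.3 FPKM, against 196 and 1.75 FPKM in the warm. WRKY30 stood at 5.10 FPKM at 1 week and 6.38 FPKM in the warm in SW. Other groups had like counts: tonoplast aquaporins were lower in 4 of 4 genes in both, evening clock genes higher in 10 of 14 in both, and aliphatic glucosinolate genes lower in 11 of 21 in IT and 12 of 20 in SW. Cytosolic ribosomal protein genes were higher in 89 of 157 in IT and in 50 of 158 in SW, with medians of 361 FPKM in the cold and 156 FPKM in the warm in IT, and 419 and 204 FPKM in SW. Of the COR, dehydrin and LEA genes 9 of 14 were higher in IT and 10 of 14 in SW, with median log2 ratios of 1.16 and 3.68. COR15A stood at 3062 FPKM in the cold and 107 FPKM in the warm in IT, and at 13319 and 108 FPKM in SW. For ADH1 and BAM3 the SW ratio was also the greater, with log2 ratios of 3.61 and 2.81 in IT against 5.59 and 4.18 in SW.

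**Figure D5:**
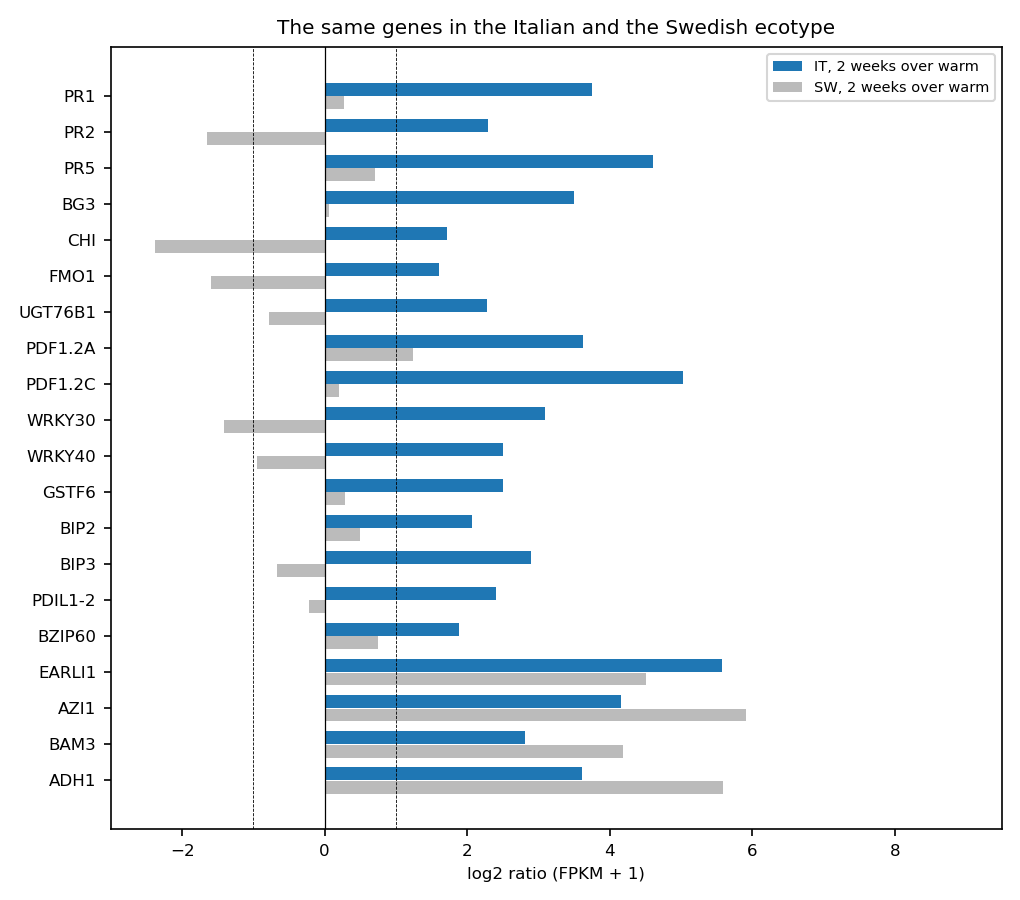
Log2 ratios of FPKM + 1, 2 weeks at 4 °C over warm, for 20 genes, picked after their values were seen, in IT (blue) and SW (grey), with 2-fold as dashed lines and 1 combined value per group. PR2 and CHI are at 2.28 and 1.72 in IT and at -1.66 and -2.38 in SW, while EARLI1 and AZI1 are positive in both.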

How the data were processed

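RNA sequencing values of whole aerial parts were analysed for IT plants after 2 weeks of cold and in the warm, with the other IT and SW groups beside them. The deposited table holds FPKM values, and per the file headers the authors gave 1 value per gene and group, so the 3 libraries of a group cannot be separated. Per the submitters' processing notes, TopHat 1.4.1, Cufflinks 2.1.1, Cuffdiff and the build TAIR10 were used. Their settings were not given in the sources used here, and neither was the way the libraries were combined. Depth is unknown and no counts were recovered. Whether the 3 libraries were separate plants or technical repeats does not bear on any value, because no p-value was computed. A test would need values per library, so none was planned and pairs of values are given.

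Genes with at least 1 FPKM in either group were kept, log2((cold + 1)/(warm + 1)) was computed without further scaling, and 2-fold was the call limit (Python 3.11.15, pandas 2.3.3, numpy 2.4.6). Genes at exactly 0 in one group had no ratio. The arithmetic of the ratios and calls was tested on simulated data, which gives no error for the real values. Loci were matched to TAIR10.1, whose nuclear sequence lengths are those of TAIR10 (32813 loci, 97.8%). The 61 lists with 839 loci, of which 838 were in the table, and the families by annotated product were chosen with earlier results of these data known. Named genes were drawn from the 15 highest and 15 lowest ratios among genes of at least 10 FPKM. They were also drawn from the 10 most abundant genes in the cold and, per list, from up to 4 members with the largest differences. The most abundant list member within 2-fold and those that define the list were added. Alternatives were a pseudocount of 0.1, no filter and a filter of 5 FPKM, 0 used as 0, protein-coding genes alone, and upper-quartile, reference-gene and quantile scaling. One promoter window is not reported here.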

Additional observations from a re-analysis of the deposited data

Results flagged for a closer look

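Among the named genes, the members of the hand-made lists, the WRKY factors and the glutathione transferases, 7 genes were at least 2-fold higher after 2 weeks of cold than in the warm in IT and at least 2-fold lower in SW. Each rests on 1 combined value per group, and the difference between the ecotypes was not tested. PR2, a beta-1,3-glucanase, had a log2 ratio of 2.28 in IT and -1.66 in SW, with 2001 FPKM in the cold and 410 FPKM in the warm in IT, and 105 and 333 FPKM in SW. CHI, a chitinase, had 1.72 in IT and -2.38 in SW, and CHIA, an acidic chitinase of low level, 1.01 and -1.19. FMO1, the enzyme of N-hydroxypipecolic acid, had 1.60 in IT and -1.60 in SW. The transcription factors WRKY30 and WRKY53 had 3.09 and 1.28 in IT, against -1.41 and -1.44 in SW. SAG13, a short-chain dehydrogenase of senescing leaves, had 1.08 in IT and -1.84 in SW, with 291 FPKM in the cold and 137 FPKM in the warm in IT, and 17.7 and 65.7 FPKM in SW. Genes for short RNAs, whose FPKM is uncertain, also lay on opposite sides: SNOR95, a small nucleolar RNA, had 1.54 in IT and -2.65 in SW, and the miRNA precursors MIR171c and MIR166e had -2.19 and -1.55 in IT, against 1.28 and 2.38 in SW.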

How the results depend on the processing

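No paired analysis was possible because the deposited columns carry no replicate, and for the same reason no replicate could be left out. Under reference-gene scaling 488 genes were higher and 3493 lower, against 1362 and 1247 as deposited, so the higher genes were 12.3% of all calls there and 52.2% as deposited. That scaling applies 1 common factor per group and so moves all ratios in the same direction. It matches the median levels of the reference genes and not their ratios, whose median went from 0.26 to -0.31. Which scaling is nearer to the true levels was not tested. Under the other 7 alternatives both counts stayed within 1.5 times the deposited ones. Without the filter they could not change, since a gene below 1 FPKM in both groups cannot reach 2-fold. No gene past 2-fold among 275 named or listed changed sign under any alternative. For most alternatives this was fixed in advance. The filters, the use of 0 and the protein-coding limit leave such a ratio as it is. A smaller pseudocount cannot turn a sign, and 1 common factor per group moved ratios by less than the call limit. Of the 275 genes, 60 came inside 2-fold under reference-gene scaling, 21 under quantile normalization and 18 under upper-quartile scaling. Small ratios move with scaling, so the absence of a call says little. A value of 1 library, the spread between plants and the noise of low FPKM could not be seen.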

Other observations

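Of the 72 genes at least 8-fold higher in the cold, 41 belong to none of the lists or families, and the following were chosen after their values were seen. The cell wall extensins EXT3 and EXT4, hydroxyproline-rich structural proteins, stood at 681 and 591 FPKM in the cold, against 78.0 and 33.8 FPKM in the warm. In SW they stood at 111 and 179 FPKM in the cold, against 67.8 and 101 FPKM in the warm. PAD3, the last enzyme of the phytoalexin camalexin, stood at 63.6 FPKM in the cold and 5.64 FPKM in the warm in IT, and at 9.55 and 6.39 FPKM in SW. SBT3.3, a subtilase of immune priming, stood at 38.8 FPKM in the cold and 2.68 FPKM in the warm in IT, and at 2.1 and 1.94 FPKM in SW. ARD3, an acireductone dioxygenase of the methionine cycle, stood at 78.2 FPKM in the cold and 7.50 FPKM in the warm in IT, and at 11.0 and 10.4 FPKM in SW. These 5 genes were at least 8-fold higher in IT and within 2-fold in SW.

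The B-box genes BBX8 and COL9, zinc-finger proteins of light and day-length signalling, were high in both ecotypes. BBX8 stood at 65.4 FPKM in the cold and 2.44 FPKM in the warm in IT, and at 82.7 and 1.36 FPKM in SW. COL9 stood at 22.8 FPKM in the cold and 0.482 FPKM in the warm in IT, and at 23.7 and 0.421 FPKM in SW.

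AT2G15128 was listed at 391 FPKM in the cold and 31.9 FPKM in the warm in IT, against 0.307 FPKM in the cold and 0 in the warm in SW. Among 47 histone genes 5 were higher and 3 lower, but none and 10 under reference-gene scaling, where their median of 0.42 was -0.14. The linker histone HIS1-3 stood at 4.45 FPKM in the cold and 51.8 FPKM in the warm. Of 16 sulfur limitation genes 2 were higher and 1 lower, and 1 and 4 under reference-gene scaling, where their median of 0.36 was -0.20. LSU4 stood at 25.7 FPKM in the cold and 5.18 FPKM in the warm, and SDI1 at 14.3 and 35.5 FPKM. Of 66 genes encoded in the plastid 7 were higher and 7 lower, and 4 and 14 under reference-gene scaling, where their median of 0.21 was -0.33.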
